A study of Mus musculus with 18 samples.

Results

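RNA from the genes of 9 Polycomb complex subunits (*Ezh2*, *Suz12*, *Eed*, *Ring1*, *Rnf2*, *Cbx2*, *Cbx6*, *Cbx7* and *Cbx8*) was examined in libraries of a *miR-92b* pulldown study and its controls, made from N2A cells (Neuro2A), a wild-type neuroblastoma line of the mouse. The members were chosen by name, as the loci whose gene symbols include 1 of the 9. Each name gave 1 locus among 52179 loci with a symbol, and all 9 were among the 15579 loci that were tested, those whose normalized counts averaged 10 or more. The question put to the data was how the RNA of these subunits is spread between nuclear and whole cell lysates, and whether *miR-92b* used as a bait held more of it than a scrambled bait.

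There were 18 samples in 6 groups of 3. Nuclear and whole cell lysates were each made from cells transfected with a biotinylated *miR-92b* mimic at 25 nM, from cells given a scrambled sequence with biotin (Scr) at the same dose, and from untransfected cells (control). The methods describe collection of the biotinylated mimics on beads, and whether the sequenced control lysates went over beads is not stated in so many words. All libraries were made from RNA selected with oligo-dT, which holds RNA with a poly(A) tail. The whole cell lysate also contains the nucleus, so the comparison of lysates is not one of nucleus with cytoplasm. N2A is a single tumour line. The study describes separate experiments for a PCR check of the pulldown, with untransfected cells beside both baits, but the labels do not say of the sequenced samples that the 3 in a group came from separate cultures, and the tests measure the spread between these samples, which may be technical.

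Polycomb proteins keep developmental genes silent through marks on histones. Polycomb repressive complex 2 (PRC2) methylates histone H3 with the enzyme EZH2 and requires SUZ12 and EED for its activity. Polycomb repressive complex 1 (PRC1) ubiquitinates histone H2A with RING1 or RNF2 (also called RING1B), and its CBX proteins read the methyl mark that PRC2 writes. The measurements here are of the RNA of these genes, not of the proteins or of their marks.

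The seed of a miRNA (bases 2 to 8) is the part that pairs with most of its targets. Mouse miR-92b-3p is encoded on chromosome 3 (chr3:89227126-89227147, minus strand, GRCm38.p6), and its mature sequence from RefSeq is shown with the seed in capitals. The sequence of the mimic itself is not given in the sources used here.

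miR-92b-3p: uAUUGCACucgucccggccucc

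The complement of the seed was searched on the sense strand of the members' transcripts in GENCODE M21 (GRCm38), as GTGCAAT, as TGCAATA, or as both in 1 stretch (GTGCAATA, an 8mer). Of the 9 members, 1 held a match in a 3' UTR, and the share over 21022 genes with a 3' UTR was 12.7%. The match was in *Ezh2* at chr6:47530331-47530337 (minus strand), and it lay in the 3' UTR of all 4 protein-coding *Ezh2* transcripts that had one. The only match in a coding sequence was an 8mer in *Cbx8* at chr11:119039065-119039072 (minus strand); of 21877 coding sequences, 1.07% held an 8mer and 8.28% any of the matches. Both are shown with the matching bases in capitals, since these were the only members with a match in the regions searched (3' UTR and coding sequence). A match is a description of the sequence and does not show binding.

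*Ezh2*, 3' UTR: cagtgagttttTGCAATAatgcagtatgg
*Cbx8*, coding sequence: actcagacctgGTGCAATAtggtgtgacca

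The samples held between 3752991 and 22920038 reads on loci with a symbol. Markers fixed for sympathetic neuroblastoma were present (*Phox2a* and *Hand2* at a median FPKM of 21.4 and 24.6, and *Gata2* at 22.9 for its locus of a single symbol), though some only at a low level (*Dbh* at 2.23 and *Th* at 7.06). Of 7 markers of other cell types 3 were tested, with median FPKM of 2.52 (*Mbp*), 1.70 (*Pecam1*) and 0.679 (*Gfap*), none called between lysates, and *Aqp4*, *Ptprc*, *Cd68* and *Col1a1* had a median of 0. All 6 loci of a list of abundant cytoplasmic mRNAs were lower in nuclear samples, from *Actb* (log2 fold change -2.15) to *Rplp0* (-3.67). Their summed normalized count was 4443.7 to 14988.7 in nuclear and 29666.6 to 113884.9 in whole cell samples. Of 5 tested loci of nuclear RNAs, *Malat1* (1.08), *Neat1* (1.06) and *Kcnq1ot1* (0.98) were higher in nuclear samples, and *Meg3* (1.65, limma adjusted p = 0.145) and *Rian* (0.61, 0.0984) did not pass. From the same list *Miat*, nearly absent with an FPKM of at most 0.041, and another locus of *Rian* were not tested. Samples of 5 groups stood apart from their partners, 3 of them in the number of loci with reads and the others in depth. Whole cell *miR-92b* sample 3 held reads on the fewest loci (14300, against 15826 and 17331 in its group) and had the highest sum of cytoplasmic mRNAs. Nuclear Scr sample 1 held reads on 19786 loci, against 14928 and 15092 in samples 2 and 3. Nuclear control sample 3 held reads on 15732 loci, against 20631 and 20021 in its group. Nuclear *miR-92b* sample 2 had 16931731 reads, against 4254890 and 4487495, and whole cell Scr sample 3 had 22920038, against 6634894 and 5769804.

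Levels of different genes were compared by FPKM, the deposited fragments relative to transcript length and to all mapped fragments. In whole cell samples, *Ezh2* (41.6 ± 18.3, SD, n = 9), *Cbx7* (40.1 ± 9.75), *Cbx6* (35.6 ± 9.16) and *Eed* (34.0 ± 17.6) had the highest FPKM. *Rnf2* (21.7 ± 7.24) and *Suz12* (21.3 ± 4.67) followed, then *Cbx2* (10.8 ± 2.18), *Cbx8* (5.15 ± 4.81) and *Ring1* (4.51 ± 2.37). Neighbours in this order differed by more than the larger of their SDs only between *Suz12* and *Cbx2* and between *Cbx2* and *Cbx8*. Of the 2 genes for the PRC1 ligases, *Rnf2* was above *Ring1* in each of the 18 samples, nuclear ones included. Normalized counts, which are not relative to transcript length, gave another order. By mean count in whole cell samples, *Cbx6* (1601.9) and *Cbx7* (1081.4) were highest. *Eed* (216.4) lay below *Suz12* (604.0), *Ezh2* (594.6), *Cbx2* (506.5) and *Rnf2* (475.5), and *Cbx8* (118.0) and *Ring1* (104.4) were again lowest.

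In nuclear samples, *Ezh2* again had the highest FPKM (42.0 ± 12.6, SD, n = 9), followed by *Eed* (33.0 ± 15.9), *Cbx7* (32.1 ± 8.26) and *Cbx6* (23.0 ± 3.56). *Suz12* (12.0 ± 4.19), *Rnf2* (10.7 ± 3.02) and *Cbx2* (8.07 ± 1.31) lay below them. *Cbx8* (4.74 ± 8.18) and *Ring1* (3.67 ± 1.39) were lowest. The steps larger than the larger SD were those from *Cbx7* to *Cbx6* and from *Cbx6* to *Suz12*. The nuclear mean of *Cbx8* rested on Scr sample 3 with an FPKM of 26.4, against 1.15 to 4.69 in the other 8 nuclear samples, and its median was 1.71. Its normalized count in that sample, 119.8, was about as high as that of whole cell control sample 2 (118.5), whose FPKM was 3.76, so that count and FPKM did not rank the samples alike. By mean count in nuclear samples, *Cbx6* (1486.3) and *Cbx7* (1012.9) were highest. *Eed* (220.1) lay below *Ezh2* (510.1), *Cbx2* (475.0) and *Rnf2* (258.5).

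**Figure D1:**
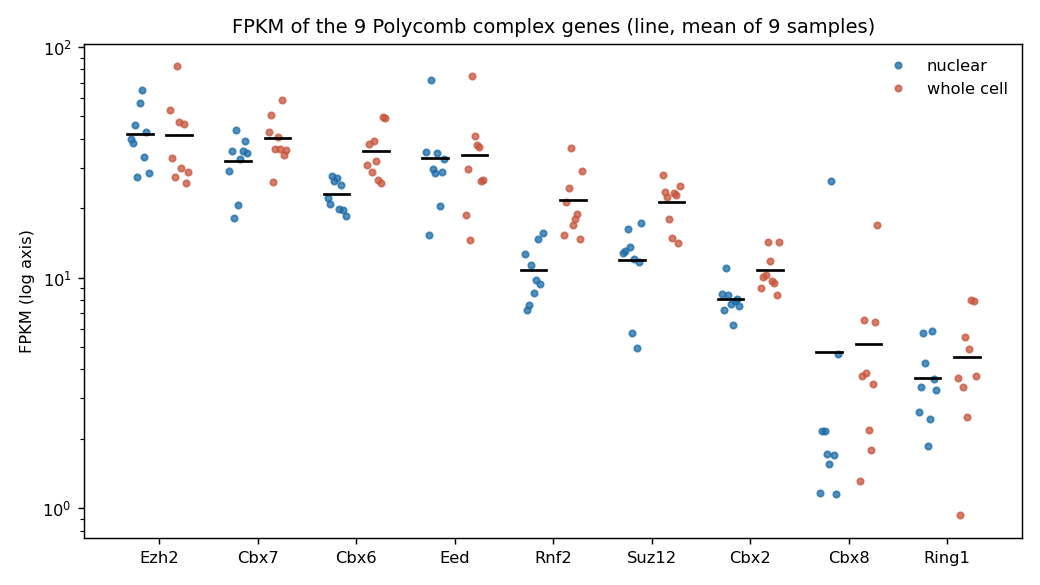
FPKM of each member (log axis) in 9 nuclear (blue) and 9 whole cell (red) samples, in the order of the whole cell means. Each point is a sample and each line a mean; Ezh2, Cbx7, Cbx6 and Eed were highest, and Cbx8 and Ring1 lowest.

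The locus of *Cbx6* also joins *Npcd* and *Nptxr*, and that of *Ring1* joins *Gm26940* and *Mir219a-1*, and their values cannot be split between these genes. The other 7 loci carry 1 symbol. Listed coordinates were shared with other loci for *Cbx7*, *Ezh2*, *Suz12*, *Eed*, *Ring1* and *Rnf2*, each of which kept its own values. *Cbx8* (32 to 395 reads per sample) and *Ring1* (24 to 443 reads) were the members with the fewest reads, and had the widest intervals in every comparison below.

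Between lysates, the RNA of *Suz12* and *Rnf2* was lower in the nuclear samples and the other 7 members did not pass the test. Fold changes are differences of log2(normalized count + 1), tested with limma over the 15579 loci. *Suz12* fell by 1.52 on the log2 scale (2.86-fold lower; SE 0.18, limma adjusted p = 7.23e-07), and *Rnf2* by 0.88 (1.83-fold lower; SE 0.15, limma adjusted p = 0.000123), as the mean over control, Scr and *miR-92b*. Of the 9 members 2 passed, while 31.0% of all tested loci passed, 15.8% lower and 15.3% higher. The median log2 fold change was -0.11 over the members and 0.14 over all tested loci.

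*Suz12*, the PRC2 subunit that holds the complex together, had normalized counts of 184.8, 200.3 and 235.7 in nuclear control samples and 697.3, 679.6 and 571.4 in whole cell control samples. With Scr, the counts were 224.0, 174.9 and 374.5 in nuclear and 562.9, 429.4 and 727.5 in whole cell samples. With *miR-92b*, they were 131.1, 174.1 and 213.5 in nuclear and 473.3, 418.4 and 876.4 in whole cell samples. Every nuclear sample lay below every whole cell sample. The 95% interval of the log2 difference was -1.89 to -1.15. The FPKM of *Suz12* was 4.94 to 17.3 in nuclear and 14.1 to 27.9 in whole cell samples, which overlapped, and its difference on log2(FPKM + 0.1) was smaller, -0.90 (limma adjusted p = 0.0119).

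*Rnf2*, the gene of the main ubiquitin ligase of PRC1, had normalized counts of 254.2, 213.8 and 329.1 in nuclear control samples and 422.2, 447.9 and 506.7 in whole cell control samples. With Scr, the counts were 252.9, 329.2 and 200.5 in nuclear and 512.9, 441.5 and 439.5 in whole cell samples. With *miR-92b*, they were 263.6, 214.8 and 268.8 in nuclear and 426.5, 379.8 and 702.4 in whole cell samples. Here too all 9 nuclear samples lay below all 9 whole cell samples, with an interval of -1.19 to -0.56. On FPKM the difference was -0.99 (limma adjusted p = 0.00252), and the samples overlapped. Groups of counts that do not overlap were found for 2 of the 9 members and for 7.32% of all tested loci.

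**Figure D2:**
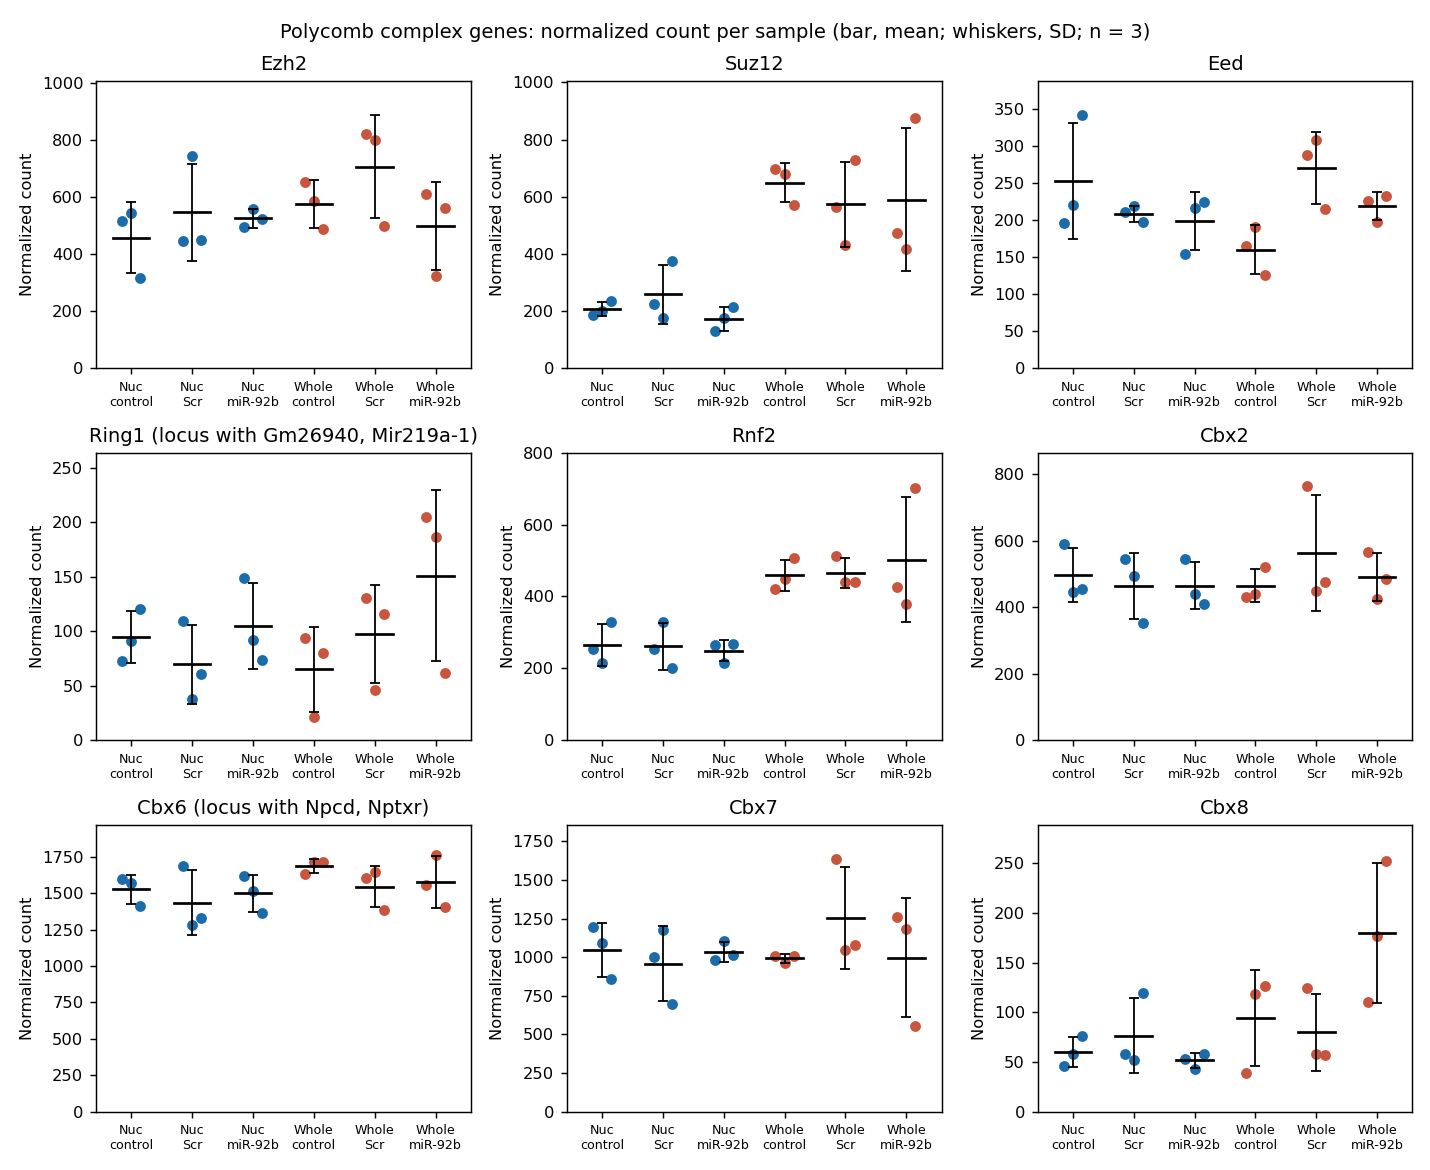
Normalized count of each member in every sample, by group (blue, nuclear; red, whole cell; bar, mean of 3 samples; whiskers, SD; the y axes start at 0 and differ between genes). For Suz12 and Rnf2 all nuclear points lie below all whole cell points, and for the other members they overlap.

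The other PRC2 members, *Ezh2* and *Eed*, did not pass this test. *Ezh2*, the methyltransferase, had normalized counts from 316.4 to 743.5 (median 515.6) in nuclear and from 324.1 to 823.3 (median 588.0) in whole cell samples. Its log2 difference was -0.21 with an interval of -0.54 to 0.13 (limma adjusted p = 0.342). *Eed*, the subunit that binds the methylated histone, lay between 154.3 and 341.7 (median 216.8) in nuclear and between 125.5 and 307.8 (median 215.0) in whole cell samples. Its difference was 0.04, with an interval of -0.32 to 0.41 (limma adjusted p = 0.881). The log2 ratio of *Suz12* to *Ezh2* counts within a sample, a measure chosen after the values were seen and not tested, ranged from -2.08 to -0.26 in nuclear and from -0.89 to 0.64 in whole cell samples. That of *Suz12* to *Eed* ranged from -0.53 to 0.93 in nuclear and from 0.48 to 2.18 in whole cell samples.

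In PRC1, *Ring1*, the second ligase gene, had a log2 difference of -0.04 (interval -0.83 to 0.75, limma adjusted p = 0.947), with counts from 38.0 to 148.9 in nuclear and from 20.8 to 205.2 in whole cell samples. This interval was 2.49 times as wide as that of *Rnf2*. Among the CBX genes, *Cbx2* had a difference of -0.08 (interval -0.37 to 0.20), *Cbx6* of -0.11 (-0.30 to 0.08) and *Cbx7* of -0.06 (-0.37 to 0.24). Their limma adjusted p-values were 0.673, 0.389 and 0.781. The count of *Cbx7* was 694.8 to 1195.7 in nuclear and 553.2 to 1635.1 in whole cell samples, and the count of *Cbx2* 353.1 to 589.2 and 424.1 to 765.4. *Cbx6* counts were 1283.3 to 1689.6 in nuclear and 1385.2 to 1763.5 in whole cell samples. On FPKM *Cbx6* differed by -0.60 (limma adjusted p = 0.00964), a call that the counts did not give.

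*Cbx8* had a log2 difference of -0.76 (SE 0.35, interval -1.48 to -0.04) that did not pass after adjustment (limma adjusted p = 0.101, range over the alternatives 0.0371 to 0.456). Its counts were 43.4 to 119.8 (median 57.8) in nuclear and 38.8 to 251.8 (median 118.5) in whole cell samples. DESeq2 on the recovered reads called it lower in nuclear samples (-0.82, DESeq2 adjusted p = 0.0371), as did limma without whole cell control sample 1 (-0.94, adjusted p = 0.0427). That sample held the lowest *Cbx8* count of all 18.

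The list of cytoplasmic mRNAs moved with the results for *Suz12* and *Rnf2*: all 6 were lower in nuclear samples, and their summed counts did not overlap between lysates. In a list of neuronal markers 3 of 4 tested were also lower in nuclear samples (*Stmn2* -1.0, *Uchl1* -1.27 and *Gap43* -1.05). *Map2*, the remaining tested marker, went the other way (0.25) and did not pass (limma adjusted p = 0.211). *Nefl*, also listed, had an FPKM of 0 in all samples and was not tested. The sums of the neuronal list were 1313.3 to 1980.8 in nuclear and 2094.0 to 4993.0 in whole cell samples. The part of either list in the results was not tested. Whole cell *miR-92b* sample 3 held the highest sum of cytoplasmic mRNAs and the highest *Suz12* and *Rnf2* counts. Without that sample *Suz12* fell by 1.41 (limma adjusted p = 3.14e-07) and *Rnf2* by 0.79 (limma adjusted p = 0.00013). Without nuclear Scr sample 1 the differences were -1.50 and -0.87 (limma adjusted p = 3.71e-06 and 0.000308), and without nuclear control sample 3 they were -1.55 and -0.93 (limma adjusted p = 2.19e-06 and 0.000115). Without the deep nuclear *miR-92b* sample 2 they were -1.52 and -0.84 (limma adjusted p = 2.73e-06 and 0.000491), and without the deep whole cell Scr sample 3 -1.45 and -0.89 (4.87e-06 and 0.00029). In bulk lysates, less RNA of a gene per cell and a smaller share among all RNA recovered cannot be told apart.

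Within single treatments the difference in *Suz12* passed in all 3, and that in *Rnf2* in 1. On FPKM neither passed in any of them, with limma adjusted p-values for *Suz12* of 0.304 in control, 0.242 with Scr and 0.147 with *miR-92b*. In control samples *Suz12* fell by 1.65 (SE 0.31, limma adjusted p = 0.000968) and was the only member called, against 9.85% of all tested loci (1535 loci, and 850 to 1287 with a sample left out, fewest without nuclear sample 3). *Rnf2* differed there by -0.80 (SE 0.27, limma adjusted p = 0.0562), and passed in the model of those groups alone (adjusted p = 0.0158) and with DESeq2 (0.0427). These settings called 3108 and 2065 of all tested loci. In control samples the counts of 4 of the 9 members did not overlap between lysates, against 38.1% of all tested loci. These were *Suz12*, *Rnf2* and *Cbx6*, lower in nuclear samples, and *Eed*, higher. *Cbx6* differed by -0.14 and did not pass (limma adjusted p = 0.664). *Eed* counts were 196.4, 220.5 and 341.7 in nuclear and 164.6, 190.2 and 125.5 in whole cell control samples, and the difference of 0.63 did not pass (limma adjusted p = 0.216). Its FPKM overlapped, with 35.1, 15.4 and 71.7 in nuclear and 18.7, 29.5 and 14.6 in whole cell control samples.

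The sum of cytoplasmic mRNAs was 6203.8 to 14988.7 in nuclear Scr samples, above the 5804.9 to 6180.7 of nuclear *miR-92b* samples and overlapping the 4443.7 to 7318.7 of nuclear control samples, and its part in the values with Scr was not tested. With Scr, *Suz12* fell by 1.19 (SE 0.31, limma adjusted p = 0.0264) and was again the only member called, against 5.17% of tested loci (805 loci, and 386 to 1052 with a sample left out, fewest without whole cell sample 3). The call did not hold when nuclear sample 1 (-1.13, limma adjusted p = 0.0554) or 2 (-0.95, 0.114), or whole cell sample 1 (-1.19, 0.074) or 3 (-1.003, 0.113), was left out, or without the filter on low counts (-1.19, 0.172). *Rnf2* differed by -0.86 (limma adjusted p = 0.0604), and passed without nuclear sample 2 (limma adjusted p = 0.0467). With *miR-92b*, *Suz12* fell by 1.71 (SE 0.31, limma adjusted p = 0.00069) and *Rnf2* by 0.96 (SE 0.27, limma adjusted p = 0.0175), so that 2 members passed against 13.3% of tested loci. Those 2071 loci became 975 without whole cell sample 3, 1123 to 1213 without a nuclear sample, and 2760 to 2914 without whole cell sample 2 or 1. The model of the compared groups alone called 597 loci. The call of *Rnf2* was lost without whole cell sample 3 (-0.70, limma adjusted p = 0.125) and without nuclear sample 2 (-0.86, limma adjusted p = 0.0903), without a filter (0.0617) and in the model of those groups alone (0.0822). *Cbx8* counts with *miR-92b* were 53.3, 43.4 and 57.9 in nuclear and 110.7, 177.1 and 251.8 in whole cell samples, without overlap (as in 36.2% of all tested loci). The difference was -1.72 (SE 0.60, limma adjusted p = 0.0618). It passed with a pseudocount of 8 (limma adjusted p = 0.0422), after rescaling to the same median (0.0482), without whole cell *miR-92b* sample 1 (0.0389) and with DESeq2 (0.013). It did not pass on FPKM (limma adjusted p = 0.282), where the groups overlapped, without a filter (0.118) or in the model of those groups alone (0.07). Nor did it pass with edgeR (edgeR adjusted p = 0.0564) or with any other sample left out (limma adjusted p = 0.0938 to 0.239). Between *miR-92b* and Scr the difference of these differences was called for no member (*Suz12* -0.52, limma adjusted p = 0.772; *Rnf2* -0.11, 0.954; *Cbx8* -1.66, 0.701), and whether they vary between either bait and control was not tested.

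Other genes of the Polycomb system were taken from a list of 38, of which 35 were tested at 37 loci. Of these loci 12 were lower and 7 higher in nuclear samples and 18 did not pass. Called were thus 51.4% (32.4% lower and 18.9% higher), against 31.0% (15.8% and 15.3%) of all tested loci, and the median log2 difference was -0.17, against 0.14 over all loci. The PRC2 histone-binding subunits *Rbbp7* (-1.24, SE 0.14) and *Rbbp4* (-0.39) were lower, as *Suz12* was. *Ezh1*, the second methyltransferase gene, had a difference of 0.36 that did not pass (limma adjusted p = 0.125). Among PRC2 accessory genes *Mtf2* was higher (0.36) and *Aebp2* lower (-0.38), whereas *Jarid2* (0.04), *Phf1* (0.55) and *Phf19* (0.70) did not pass.

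Among genes of canonical PRC1, the PCGF gene *Pcgf2* (-1.93, SE 0.38, limma adjusted p = 0.000456), its relative *Bmi1* (-0.60) and the polyhomeotic genes *Phc1* (-0.73) and *Phc2* (-0.67) were lower in nuclear samples, and *Phc3* was higher (0.47). Among genes of variant PRC1, *E2f6* (-1.02) and *Pcgf3* (-0.74) were lower, and *Mga* (0.48), *Rybp* (0.39, at a locus joined with *Gm44044*) and *Pcgf6* (0.37) higher. *Auts2* had 3 tested loci, of which those joined with *Gm42992* (1.19) and *Gm42440* (0.82) were higher and the third (0.21) did not pass. The demethylase gene *Kdm6b*, which removes the PRC2 mark, was lower (-0.84), while *Kdm6a* (-0.17) did not pass. The list was made with results of these data known, and its counts are a description.

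**Figure D3:**
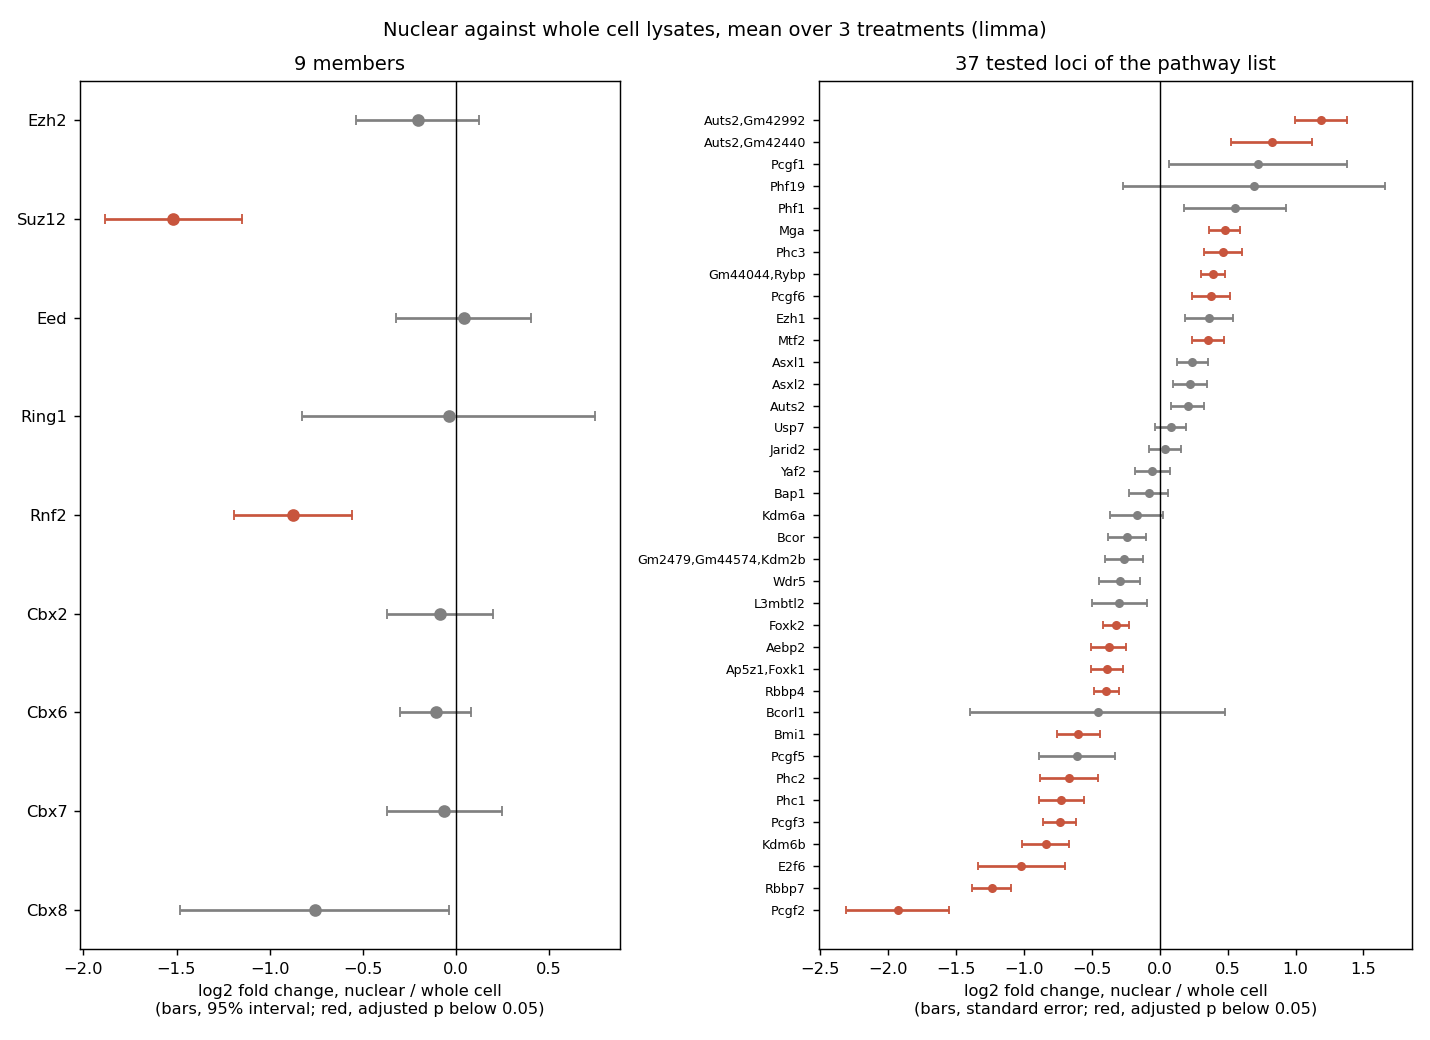
Log2 fold change, nuclear over whole cell samples, as the mean over 3 treatments, for the 9 members (left; bars, 95% interval) and for 37 loci of the other Polycomb genes (right; bars, standard error); red marks a limma adjusted p below 0.05. Suz12 and Rnf2 are the members in red, and on the right 12 loci lie in red below 0 and 7 above.

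No member passed the test of *miR-92b* against Scr, in nuclear or in whole cell samples. In nuclear samples limma called 0 of the 9 members and 0.0% of all tested loci; 687 loci and none of the members had an unadjusted p below 0.05, edgeR called 0 loci and DESeq2 1. Without nuclear Scr sample 1, limma called 49 loci, none of them a member. In whole cell samples limma called 0 members and 0.00642% of loci (1 locus), edgeR called 1 locus and DESeq2 176; again no member was among them. Limma called 77 loci without whole cell *miR-92b* sample 1 and 13 without whole cell Scr sample 2, none of them a member. In limma with all samples, 1515 loci (9.73%) and no member had an unadjusted p below 0.05. The difference between the 2 effects was called for 0 members and 0.00642% of loci (1 locus with edgeR, 40 with DESeq2). With a sample left out limma called 0 to 5 loci for it, most without nuclear Scr sample 1, and no member.

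The 2 members with a match to the seed were followed first. *Ezh2* counts in nuclear samples were 494.4, 557.9 and 523.4 with *miR-92b* and 447.9, 743.5 and 448.9 with Scr, and the groups overlapped. The log2 difference was -0.02, with an interval of -0.59 to 0.56. In whole cell samples the counts were 612.8, 324.1 and 562.8 with *miR-92b* and 823.3, 799.0 and 499.7 with Scr. These also overlapped, and the difference was -0.52 (SE 0.28, interval -1.09 to 0.05, limma adjusted p = 0.548).

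*Cbx8* counts in nuclear samples were 53.3, 43.4 and 57.9 with *miR-92b* and 57.9, 51.8 and 119.8 with Scr, a log2 difference of -0.47 (interval -1.72 to 0.78). In whole cell samples they were 110.7, 177.1 and 251.8 with *miR-92b* and 124.5, 57.7 and 56.8 with Scr. The highest value was that of *miR-92b* sample 3, and the groups overlapped through *miR-92b* sample 1 and Scr sample 1. The difference was 1.19 (SE 0.60, interval -0.06 to 2.44, limma adjusted p = 0.532, range over the alternatives 0.297 to 1.0). The interaction, nuclear minus whole cell, was -1.66 for *Cbx8* (SE 0.85, limma adjusted p = 0.701).

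For the other members the intervals give the size of effect these samples leave room for. *Suz12* differed by -0.53 in nuclear samples (interval -1.17 to 0.11), where the sum of cytoplasmic mRNAs was also lower with *miR-92b* than with Scr, and by -0.01 in whole cell samples (-0.65 to 0.63). *Rnf2* differed by -0.04 (-0.59 to 0.50) and 0.06 (-0.48 to 0.61), and *Eed* by -0.09 (-0.72 to 0.54) and -0.29 (-0.92 to 0.34). *Ring1* had the widest of these intervals, with 0.65 (-0.71 to 2.02) in nuclear and 0.58 (-0.78 to 1.95) in whole cell samples. The narrowest were those of *Cbx6*, 0.07 (-0.26 to 0.40) and 0.03 (-0.31 to 0.36). *Cbx2* differed by 0.02 (-0.48 to 0.51) and -0.16 (-0.66 to 0.33), and *Cbx7* by 0.14 (-0.39 to 0.67) and -0.39 (-0.92 to 0.14). None of the 37 loci of the other Polycomb genes was called in either lysate.

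**Figure D4:**
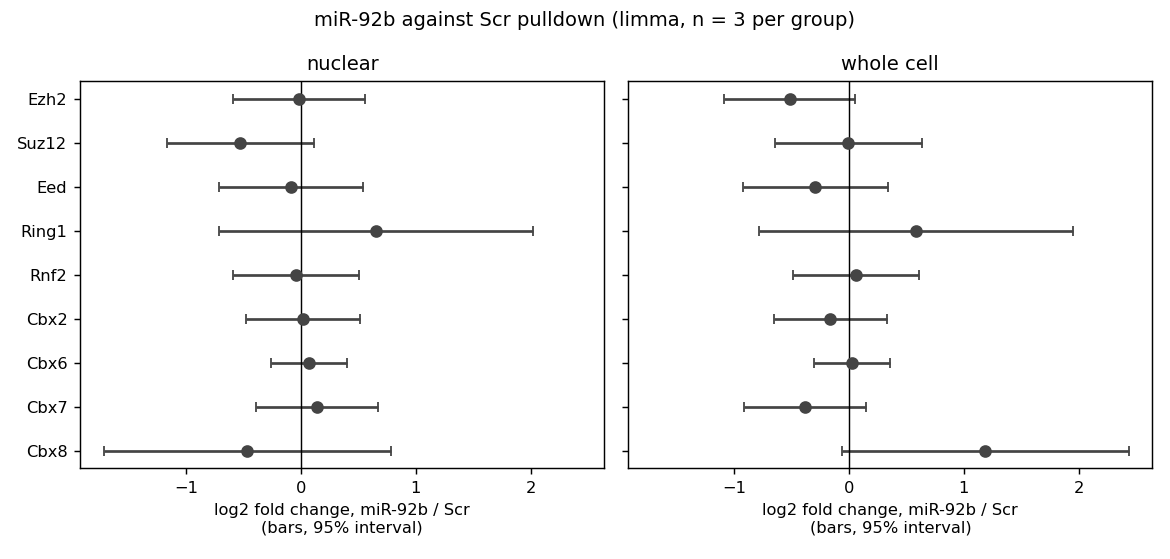
Log2 fold change of each member, miR-92b over Scr, in nuclear (left) and whole cell (right) samples (n = 3 per group; bars, 95% interval from limma). Every interval includes 0, and those of Ring1 and Cbx8 are the widest.

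The bait groups were also compared with untransfected cells, which both comparisons share. Limma called 0 members for *miR-92b* against control in nuclear (0.0% of all loci; 50 loci with an unadjusted p below 0.05) and whole cell samples (0.00642%; 731 loci). It also called 0 members for Scr against control in nuclear (0.0%; 916 loci) and whole cell samples (0.0%; 793 loci). Over all loci edgeR called 0, 1, 0 and 0 in these comparisons, in that order, and DESeq2 0, 21, 0 and 37. For Scr against control limma called 69 loci without nuclear Scr sample 1 and 12 without whole cell Scr sample 2, none of them a member. For *miR-92b* against control in whole cell samples it called 7 loci without *miR-92b* sample 1, 4 without sample 2 and 2 without sample 3, again no member. The largest difference of a member from control was that of *Ring1* with *miR-92b* in whole cell samples (1.285, SE 0.66, interval -0.08 to 2.65). Its counts overlapped. Its FPKM did not (difference 1.41, limma adjusted p = 0.962), and the share of all loci apart on FPKM was not counted. The only member with an unadjusted p below 0.05 was *Eed* for Scr against control in whole cell samples. Its counts were 288.4, 307.8 and 215.0 with Scr and 164.6, 190.2 and 125.5 in control, all higher with Scr (groups did not overlap for 13.5% of all tested loci), and the difference was 0.76 (SE 0.30, limma adjusted p = 0.957). With *miR-92b* its whole cell counts were 225.9, 197.1 and 232.6, also above all 3 control samples (8.01% of loci did not overlap; difference 0.46, limma adjusted p = 1.0). The FPKM of *Eed* was 74.9, 41.2 and 37.4 with Scr and 18.7, 29.5 and 14.6 in control, without overlap, whereas that with *miR-92b* (37.0, 26.3 and 26.6) overlapped control. Whole cell counts of 2 of the 9 members did not overlap between Scr and control, *Eed* and *Cbx7*. *Cbx7* counts were all higher with Scr (difference 0.30, limma adjusted p = 0.965), and its FPKM overlapped, with a difference of the other sign (-0.033).

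Across the 18 samples the members did not move as 1 group. The Pearson correlation of log2(normalized count + 1) was highest between *Suz12* and *Rnf2* (r = 0.82), which both differed between lysates, and lowest between *Ezh2* and *Ring1* (r = -0.38). Between the PRC2 genes it was 0.19 for *Ezh2* and *Suz12*, 0.12 for *Ezh2* and *Eed* and -0.04 for *Suz12* and *Eed*. Between *Ring1* and *Rnf2* it was -0.07. These correlations describe 18 samples that share groups, lysates and library depth.

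Each member was also set beside the locus of a single symbol whose values followed it most closely, among 7311 or 7312 loci with a mean of at least 100. These were ribosomal protein genes for *Suz12* (*Rps14*, r = 0.97) and *Rnf2* (*Rpl26*, r = 0.95). For the other members they were *Olfr1372-ps1* for *Cbx7* (r = 0.89), *Rhot1* for *Cbx8* (r = 0.87), *Cxxc5* for *Cbx2* (r = 0.82), *Enoph1* for *Ezh2* (r = 0.81), *Hsph1* for *Cbx6* (r = 0.80), *Cntrl* for *Ring1* (r = 0.73) and *Gm43920* for *Eed* (r = 0.65). As the highest of all values compared, over 18 samples, each is a description of these libraries.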

How the data were processed

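RNA from N2A lysates was sequenced in 18 samples, 12 of them from cells given a biotinylated bait and 6 from untransfected cells. The authors trimmed reads (Trimmomatic 0.30), aligned them to GRCm38 (TopHat2) and assembled loci (Cufflinks). The deposited normalized counts (a signal) had been scaled by the authors with a size factor for each sample, and the deposited FPKM values are relative to transcript length and depth. Of 635205 normalized counts above 0, 99.9% were whole multiples of 1 read within 0.02, so reads were recovered. Deposited comparison tables (fold changes and p-values) were not used, and 0 value columns were unmapped.

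The values were not raw counts, so the test was limma 3.58.1 (R 4.3.3) on log2(normalized count + 1) with its variance trend and all 6 groups in 1 model (two-sided, adjusted by Benjamini-Hochberg, threshold 0.05). Alternatives were a pseudocount of 8, no filter, FPKM with a pseudocount of 0.1, rescaled medians, the compared groups alone, a replicate block, edgeR 4.0.16 and DESeq2 1.42.0 on recovered reads, and leaving out each sample.

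All 9 members, up to 8 called loci per direction of the list, seed matches and the most similar locus of each member were named by rule. Others, such as *Ezh1* and *Rbbp4*, were named after their values were seen. Members, lists and rules were chosen with earlier results of these data known. Some listed genes are not reported here.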

Additional observations from a re-analysis of the deposited data

How the results depend on the processing

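The lower nuclear values of *Suz12* and *Rnf2*, as the mean over treatments, passed under every alternative run, with log2 differences of -1.62 to -0.90 and -0.99 to -0.79. The number of members called with control samples was 0 on FPKM, 2 in the model of those groups alone and 2 with DESeq2. Over all tested loci these settings called 1140, 3108 and 2065, in that order, against 1535 in the main test. With Scr the number of members called was 0 without a filter and 0 on FPKM, and 0 to 1 with a sample left out. Over all loci 92 of 52179 were called without a filter and 640 of 15579 on FPKM, against 805 of 15579 in the main test. With *miR-92b* the number of members called was 1 without a filter (*Suz12*), 1 in the model of those groups alone (*Suz12*) and 1 on FPKM. With a sample left out it was 1 to 3. On FPKM the member called was *Cbx6* (limma adjusted p = 0.04) and not *Suz12* (0.147) or *Rnf2* (0.283). Over all loci 858 of 52179 were called without a filter, against 2071 of 15579 in the main test. The model of those groups alone called 597 of 15579 loci, and FPKM 1413. No member was called for *miR-92b* against Scr under any alternative.

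Differences that changed sign had not passed before or after. Between lysates, as the mean over treatments, these were *Ezh2* on FPKM (0.065), *Eed* on FPKM (-0.017) and after rescaling to the same median (-0.0018), and, with a sample left out, *Eed* (-0.038 to 0.099), *Cbx7* (-0.19 to 0.0090) and *Ring1* (-0.26 to 0.092). Within single treatments, FPKM gave another sign for *Cbx2* (-0.15), *Cbx7* (-0.54) and *Ezh2* (0.18) in control, *Cbx8* with Scr (0.74) and *Cbx7* with *miR-92b* (-0.19). Of *Suz12*, *Rnf2*, *Cbx6* and *Cbx8*, listed with each sample left out, *Cbx8* with Scr turned to 0.086 without nuclear sample 1, 0.165 without nuclear sample 2 and 0.308 without whole cell sample 1, and *Cbx6* with *miR-92b* to 0.0145 without whole cell sample 2. For nuclear *miR-92b* against Scr they were *Cbx2* after rescaling (-0.10) and with DESeq2 (-0.0076), *Cbx6* on FPKM (-0.21) and after rescaling (-0.051), *Suz12* on FPKM (0.028) and *Rnf2* on FPKM (0.39). With a sample left out the ranges were -0.17 to 0.15 for *Cbx2*, -0.0056 to 0.19 for *Cbx6*, -0.074 to 0.30 for *Cbx7*, -0.19 to 0.084 for *Eed*, -0.14 to 0.23 for *Ezh2* and -0.22 to 0.14 for *Rnf2*. For whole cell *miR-92b* against Scr they were *Cbx7* (0.14), *Suz12* (0.12) and *Rnf2* (-0.15) on FPKM, and *Suz12* after rescaling (0.031), with edgeR (0.0058) and with DESeq2 (0.0312). With a sample left out the ranges were -0.30 to 0.079 for *Cbx2*, -0.058 to 0.11 for *Cbx6*, -0.33 to 0.20 for *Suz12* and -0.20 to 0.24 for *Rnf2*. For the difference between these 2 effects, nuclear minus whole cell, FPKM gave another sign for *Cbx6* (-0.51), *Ring1* (-0.0064) and *Rnf2* (0.54). For *miR-92b* against control, FPKM gave another sign for *Cbx7* (0.45), *Cbx8* (0.25), *Ezh2* (-0.26) and *Rnf2* (0.54) in nuclear samples. In whole cell samples it did so for *Cbx6* (0.30) and *Cbx7* (0.11). For Scr against control these were *Cbx6* (0.044), *Cbx7* (0.22), *Suz12* (-0.50) and *Rnf2* (0.15) in nuclear and *Cbx7* (-0.033) in whole cell samples. Other alternatives are not listed for comparisons with control. The cause of these changes of sign was not tested.

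Samples with the same number did not deviate together (median correlation 0.0022 over 45 pairs, -0.04 to 0.11), and with the replicate number as a block the members called were 2 between lysates, as without it, and over all loci 4846 against 4831. Without a filter 3138 loci of 52179 were called. Rescaling moved the median of all loci for nuclear *miR-92b* against Scr from 0.11 to -0.01.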
